A study of Mus musculus with 15 samples.

Results

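Gene expression in the cerebellum was compared between YG8JR and wild type (WT) mice within the 7 libraries that the labels place in batch B, out of 15 libraries in the series. The members were chosen by label alone: the 5 YG8JR libraries of batch B and the 2 WT libraries of batch B. The third WT library carries batch A in the labels and was left out, and doubts about it were already known from earlier results on these data. YG8JR is a mouse model of Friedreich ataxia, in which a human transgene with an expanded GAA repeat stands in for the mouse gene. The 5 YG8JR libraries hold 3 treatments. Edited replicates 2 and 5 came from YG8JR recipients of YG8JR Sca1+ blood stem and progenitor cells electroporated with Cas9 and a pair of guides, a product that the labels call mPPL-001. Mock replicates 1 and 4 came from recipients of cells electroporated with the same guides without Cas9. Recipients were 2.5 to 3 months old and received 7 Gy of irradiation the day before infusion. Untreated replicate 1 is a YG8JR mouse with no transplant in its labels, and WT replicates 1 and 2 carry no treatment. Every sample has the same age label of 6 months after transplant. Genotype was therefore joined to irradiation and transplant in 4 of the 5 YG8JR libraries, and these cannot be told apart in the pooled comparison. Nothing in the labels says in so many words that every library is its own animal, and the p-values then cover the variation among these libraries, which may be technical.

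Friedreich ataxia follows from loss of a mitochondrial protein that takes part in iron-sulphur cluster assembly, and the dentate nucleus of the cerebellum and large sensory neurons are known to be affected. Cerebellar tissue is dominated by granule neurons, whose output is read by Purkinje cells, with astrocytes, Bergmann glia, oligodendrocytes, microglia and vessels around them. Microglia are the resident phagocytes of the brain, and after irradiation and marrow transplant macrophages derived from donor marrow can enter the brain. In bulk tissue, fewer cells of a type and less RNA per cell cannot be told apart.

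Total counts ranged from 26453495 to 38760039 in the YG8JR libraries and were 28169035 in WT 1 and 16847839 in WT 2, the shallowest of the 7. Granule and Purkinje markers were present in all 7: Gabra6, a granule cell receptor subunit, was at 207 to 487 CPM (read counts scaled to a common library size) and Pcp2, a Purkinje cell gene, at 20.9 to 69.6 CPM. The 4 Y-linked genes summed to 238 and 246 CPM in the edited libraries and 250 CPM in the untreated library, against 0.965 and 1.6 CPM in mock and 0.0337 and 0.0497 CPM in WT. The mock libraries thus lay above WT but far below the edited and untreated libraries in Y-linked transcripts. Xist was at 794 and 600 CPM in mock and 815 and 2010 CPM in WT. It was at 3.37 and 1.89 CPM in edited and 0.324 CPM in untreated. The edited and untreated libraries therefore stood apart from WT in genotype, Y-linked transcripts and Xist together. In them, genotype and a sex-linked difference cannot be told apart. WT 2 also stood apart from WT 1. Their log2 CPM values correlated at 0.937 across genes, against 0.97 to 0.983 between YG8JR libraries and 0.959 to 0.968 between WT 1 and YG8JR, and WT 2 correlated with YG8JR at 0.868 to 0.919. These are descriptions across genes, which are not independent. Among the genes called higher in YG8JR, 90.9% were lower in WT 2 than in WT 1, and among those called lower 95.4% were higher in WT 2 than in WT 1. Counts or medians over gene lists are therefore also given with WT 1 as the only WT library, as are named genes whose call ends there. Some genes stand in more than 1 list.

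YG8JR cerebellum differed from WT in many genes when the 5 libraries were pooled, with immune, glial, vascular, Purkinje and glucocorticoid-responsive genes among those that were higher and granule neuron genes and noncoding RNAs among those that were lower. Of 23785 genes tested with edgeR's quasi-likelihood test, 2952 (12.4%) were called higher in YG8JR and 3462 (14.6%) lower at a Benjamini-Hochberg adjusted p under 0.05, 27% in either direction, and 43.9% had an unadjusted p under 0.05. The median log2 fold change was 0.95 among genes called higher, -1.54 among genes called lower and 0.003 over all genes tested. More than 2-fold differences were reached by 1352 of the genes called higher and 2442 of those called lower. The 5 YG8JR values did not overlap the 2 WT values for 5472 genes (23%) with YG8JR above and 5083 (21.4%) with YG8JR below.

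These counts depended on the fit. With WT 1 as the only WT library, which is then assumed to vary like the other libraries, 1141 genes (4.58%) were higher and 406 (1.63%) lower, and 1123 and 370 of these carried the same call in the pooled fit. With WT 2 as the only one the counts were 6660 (25.8%) and 5821 (22.6%). A fit with a mean for each of the 4 groups, which takes the spread within treatments alone, called 11 higher (0.0462%) and 2 lower (0.00841%), with 3433 and 4410 at an unadjusted p under 0.05. Weighting the libraries by their quality in limma left Timp3, Gfap and C4b, all higher (0.0126%, and 0% lower), with 2520 higher and 2555 lower at an unadjusted p under 0.05. A covariate for the summed Y-linked genes left no call in edgeR (0% in each direction), with a smallest adjusted p of 0.0557 and 3114 higher and 2763 lower at an unadjusted p under 0.05. DESeq2 called 4084 higher (17.2%) and 4349 lower (18.3%). Calls of single genes and lists below come from the pooled fit, and no gene named below keeps its call with the Y-linked covariate. No gene called in the pooled fit changed sign with that covariate. List medians with it were 1.72 for glucocorticoid response (1.71 pooled), 1.18 for Purkinje cells (1.14 pooled) and -0.01 for the circadian clock (0.10 pooled).

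**Figure D1:**
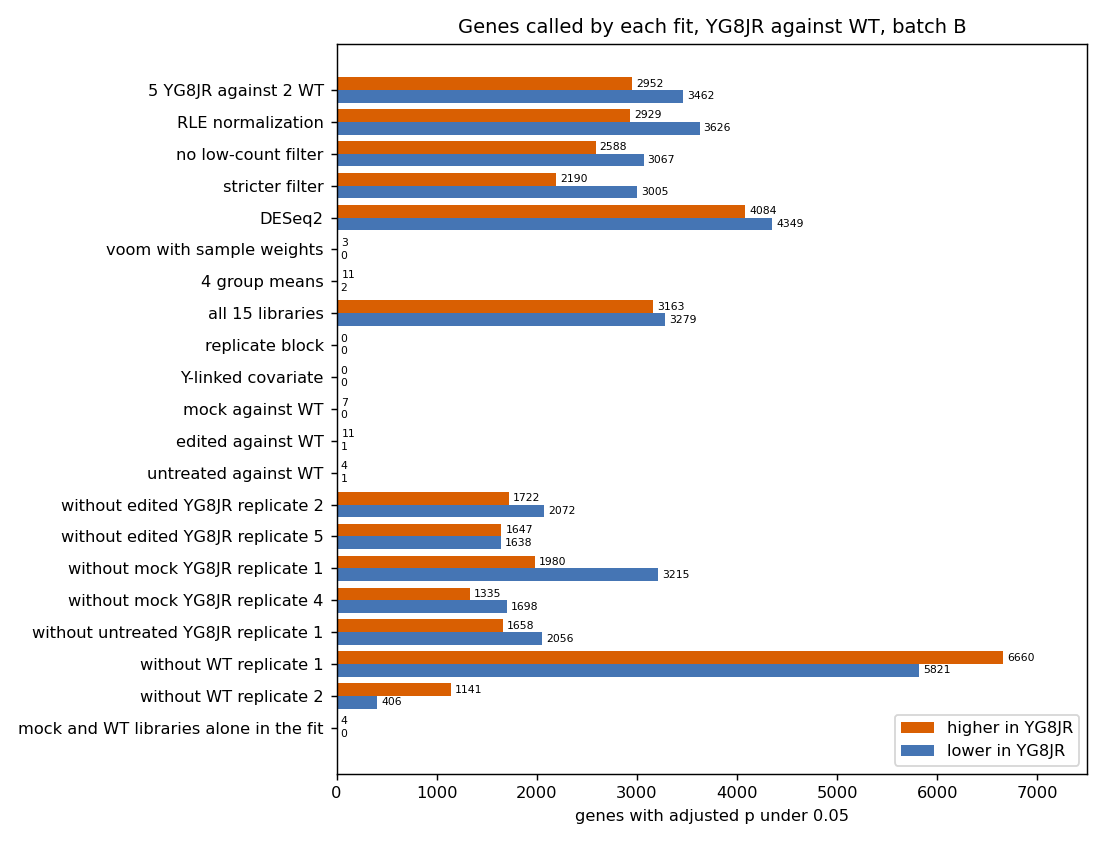
Genes with an adjusted p under 0.05 on the x axis, higher (orange) and lower (blue) in YG8JR, for each fit on the y axis. The pooled fit called 2952 and 3462, WT 1 alone as control gave 1141 and 406, and 4 group means gave 11 and 2.

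The genes named first are the 12 in each direction with the widest gap between the nearest YG8JR and WT libraries, among called genes with at least 5 CPM in the higher group. The 12 higher genes were C4b, Fcgr2b, Ccn2, Fmo2, Lyz2, Adgre1, Fcrls, Cd84, Prokr2, Edn1, H2-Eb1 and Fbln5. With WT 1 alone 10 of the 12 passed, the exceptions being Lyz2 and H2-Eb1, and choosing genes by a gap to both WT libraries favours this. In the sentences on single genes, the 5 YG8JR values stand in the order edited 2, edited 5, mock 1, mock 4 and untreated 1, and the WT values in the order WT 1 and WT 2.

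C4b, a complement component that tags cells and synapses for uptake, was at 196, 180, 174, 226 and 190 CPM in YG8JR and at 33 and 12.2 CPM in WT. Its lowest YG8JR library was thus far above both WT libraries. The log2 fold change was 3.09 ± 0.35 (± SE here and below; adjusted p = 0.00593), and 2.55 with WT 1 alone (adjusted p = 6.24e-05). C4b has a close paralog, C4a, between which reads may be split. Lyz2, the lysozyme of macrophages, was at 60.2, 68, 72.3 and 54 CPM in the 4 transplanted YG8JR libraries and at 17.4 CPM in the untreated library, against 4.25 and 2.44 CPM in WT. All 5 lay above WT, the untreated library lowest, and the log2 fold change was 4 ± 0.58 (adjusted p = 0.00803), or 3.68 with WT 1 alone (adjusted p = 0.169). Lyz2 also has a near-identical copy, Lyz1.

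Fcgr2b, an inhibitory receptor for immunoglobulin G, was at 6.98, 6.73, 9.78, 10.6 and 9.59 CPM in YG8JR and at 1.52 and 1.34 CPM in WT, with a log2 fold change of 2.60 ± 0.29 (adjusted p = 0.00584). Adgre1, which encodes the macrophage antigen F4/80, was at 6.98, 8.85, 10, 8.46 and 6.18 CPM against 1.48 and 1.19 CPM. Fcrls, a marker of resident microglia in mice, was at 14.7, 20, 18.4, 16.3 and 11.9 CPM against 2.93 and 1.09 CPM. The untreated library was the lowest of the 5 for Adgre1 and Fcrls, still above both WT libraries. Cd84, a surface receptor of leukocytes, was the most even of the set, at 6.34 to 7.09 CPM in YG8JR and 1.55 and 1.44 CPM in WT.

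Fmo2, a flavin-containing monooxygenase, was at 17.9, 23.4, 19.3, 20.9 and 12.6 CPM in YG8JR and at 2.97 and 2.88 CPM in WT, with a log2 fold change of 2.68 ± 0.27 (adjusted p = 0.00584). It was one of 8 genes of the pooled calls that also passed with 4 group means (adjusted p = 0.0192). Ccn2, a matricellular protein induced by mechanical strain and growth factors, was at 15.7, 12.9, 13.3, 16.6 and 10 CPM against 2.33 and 1.24 CPM. Edn1, which encodes the vasoconstrictor endothelin, was at 5.68 to 8.18 CPM against 1.48 and 0.845 CPM. Fbln5, an elastic fibre protein of vessels, was at 38.5 to 51.9 CPM against 11 and 4.92 CPM. Prokr2, a receptor for prokineticin, was at 22.2 and 25.4 CPM in the edited libraries, 13.3 to 14.5 CPM in mock and untreated, and 3.34 and 0.497 CPM in WT.

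The 12 lower genes were Duox1, Ap1g2, Comp, Msh5, Aqp5, Plk5, Car4, Mirt1, Grin1os, Slc16a11, Napsa and Rapgef4os3, of which all but Napsa passed with WT 1 alone. Plk5, a polo-like kinase without full kinase activity that is expressed in brain, was at 21.1, 24, 18.1, 19.1 and 14 CPM in YG8JR and at 51.6 and 62.9 CPM in WT. The groups were well apart (log2 fold change -1.57 ± 0.18, adjusted p = 0.00628). Plk5 was the only gene with a lower pooled call that also passed with 4 group means (adjusted p = 0.0236). Car4, a membrane-bound carbonic anhydrase, was at 19.6 to 29.4 CPM in YG8JR and at 62.7 and 99.5 CPM in WT. Slc16a11, a monocarboxylate transporter, was at 15.9, 16.9, 17.8, 14.4 and 17.9 CPM against 37.6 and 47.9 CPM, with a log2 fold change of -1.37 ± 0.14 (adjusted p = 0.00584). Duox1, an oxidase that produces hydrogen peroxide, was at 2.12 to 4.3 CPM against 10.4 and 11.4 CPM.

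Several of the lower genes were widely spread between the WT libraries. Aqp5, a water channel, was at 0.826 to 1.73 CPM in YG8JR but at 3.91 CPM in WT 1 and 12.3 CPM in WT 2. Mirt1, a long noncoding RNA, was at 3.52 to 7.05 CPM against 15 and 36.2 CPM. Ap1g2, a subunit of a clathrin adaptor, was at 2.78 to 4.38 CPM against 10.6 and 19.8 CPM. Grin1os and Rapgef4os3 lie antisense to Grin1 and Rapgef4, and since the sources used here do not state whether counting used the strand, their reads cannot be told apart from those of their partners.

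**Figure D2:**
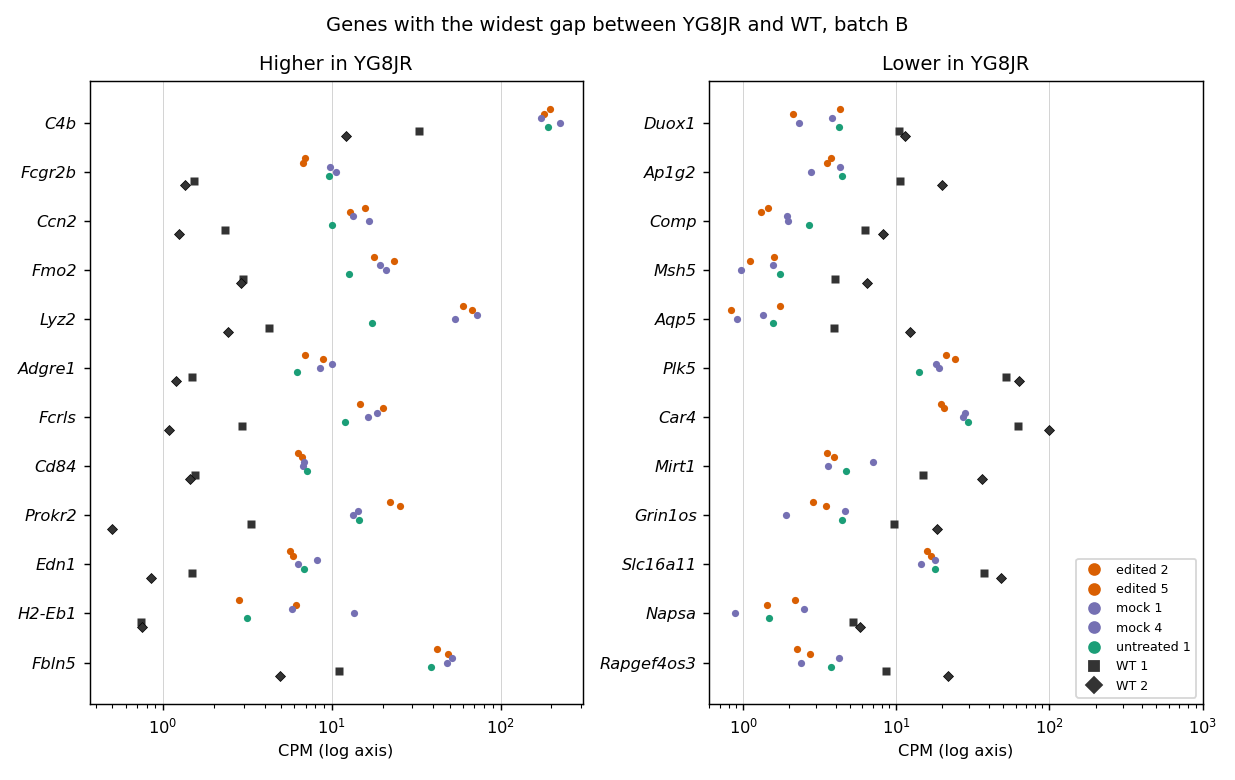
CPM on a log axis for the 12 higher and 12 lower genes with the widest gap, 1 point for each of the 7 libraries. For every gene the YG8JR points (circles) lie on one side of both WT points (square, WT 1, and diamond, WT 2).

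Phagocyte genes were higher in YG8JR. Of 25 disease-associated microglia genes tested, 20 rose and none fell, with a median log2 fold change of 1.48, and 16 rose with WT 1 alone (median 1.07). Cd68, a lysosomal glycoprotein of phagocytes, was at 7.35, 9.13, 9.62, 9.09 and 8.59 CPM in YG8JR and at 2.53 and 1.79 CPM in WT, with a log2 fold change of 2.01 ± 0.24 (adjusted p = 0.00628). Clec7a, the beta-glucan receptor that marks activated microglia, was at 2.82, 4.21, 2.53, 5.62 and 4.59 CPM against 0.439 and 0.199 CPM (log2 fold change 3.57 ± 0.52, adjusted p = 0.00805). Spp1, which encodes osteopontin and is also made by large neurons of the brainstem, was at 44.2 to 62.1 CPM against 13.6 and 6.07 CPM. All 3 genes separated the groups without overlap, as did 99.6% of all genes called higher.

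Of 25 homeostatic microglia genes, 13 rose and none fell, with a median of 1.02, and 6 rose with WT 1 alone (median 0.63). Trem2 and P2ry12 were named after their values were seen. Trem2, a lipid receptor of microglia, was at 5.64 to 11.3 CPM in YG8JR and 3.07 and 1.64 CPM in WT (adjusted p = 0.0137). P2ry12, the nucleotide receptor of resting microglia, was at 7.34 to 14.5 CPM against 9.24 and 8.11 CPM, and the groups overlapped (log2 fold change 0.29 ± 0.28, adjusted p = 0.449). Among 18 border and marrow-derived macrophage genes, 10 rose, with a median of 1.54, and 4 rose with WT 1 alone. Mrc1, the mannose receptor of border macrophages, was at 12.3, 15.1, 16.4, 13.3 and 8.15 CPM in YG8JR and at 2.8 and 2.24 CPM in WT, the untreated library lowest of the 5 (log2 fold change 2.37 ± 0.31, adjusted p = 0.0073). Cybb, the catalytic subunit of the phagocyte NADPH oxidase, was also lowest of the 5 in the untreated library, at 9.77, 9.44, 8.53 and 6.59 CPM in the 4 transplanted libraries, 2.68 CPM in the untreated library and 0.978 and 0.945 CPM in WT (adjusted p = 0.0108, and 0.0901 with WT 1 alone). Only 10 of 23 lymphocyte genes were abundant enough to test. Of these 10, 4 rose and none fell, with 6 estimates above 0 and 4 below (median 0.69, and 1.72 with WT 1 alone). Those that rose included Trac, a constant segment of the T cell receptor, at 1.87 to 3.56 CPM against 0.708 and 0.696 CPM.

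Complement and antigen presentation genes were higher as well. Of 18 complement genes 12 rose and 1 fell (median 1.66), and 6 rose with WT 1 alone (median 1.15). The gene that fell was Cfp, which encodes properdin, at 3.66 to 8.66 CPM against 13.5 and 30.3 CPM (adjusted p = 0.014, and 0.156 with WT 1 alone). Besides C4b, the rise held for the receptors C3ar1, at 5.74 to 8.35 CPM against 2.16 and 2.14 CPM, and Itgax and Itgb2, 2 chains of leukocyte complement receptors. Of 21 genes of MHC class I presentation 15 rose and none fell (median 1.33), and 5 rose with WT 1 alone. H2-K1, a classical class I chain, was at 32.6, 36.3, 38.1, 55.8 and 35 CPM in YG8JR and at 13.1 and 10.3 CPM in WT (log2 fold change 1.75 ± 0.24, adjusted p = 0.00738). B2m, the light chain shared by all class I molecules, was at 91.8, 106, 97.5, 156 and 125 CPM against 49 and 23.6 CPM (log2 fold change 1.66 ± 0.31, adjusted p = 0.0114), and missed the threshold with WT 1 alone (adjusted p = 0.0782). Class I genes are near-identical copies, and reads may be split between H2-K1, H2-D1, H2-Q4 and H2-Q6. Mock 4 was the highest library for each of H2-K1 and B2m.

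Class II genes were uneven among the YG8JR libraries. H2-Eb1, a class II beta chain, was at 2.82, 6.1, 5.77, 13.6 and 3.15 CPM in YG8JR and at 0.742 and 0.746 CPM in WT. H2-Ab1 ranged from 2.56 CPM in the untreated library to 12.9 CPM in mock 4, against 0.911 and 0.945 CPM. Of 10 class II genes 7 rose and 1 fell, but none passed with WT 1 alone. The gene that fell was Ciita, the master transactivator of class II, at 2.45 to 5.12 CPM against 6.34 and 16 CPM. Of 40 interferon-stimulated genes, 14 rose (35%, against 12.4% of all genes) and 1 fell, with a median of 1.10. With WT 1 alone the median was 0.66, and calls were about as frequent as over all genes. Ifih1, a sensor of double-stranded RNA, was at 13 to 20.3 CPM against 7.39 and 5.32 CPM (adjusted p = 0.0104). Stat2, a transcription factor of the interferon response, was the member that fell, at 43.1 to 49.1 CPM against 70.5 and 107 CPM (log2 fold change -0.92 ± 0.15, adjusted p = 0.00939).

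Promoter sequence was read for the immune, lysosomal, stress and glucocorticoid lists. In the 250 bases upstream of each RefSeq start (GRCm38.p6, 27025 genes), 9 motifs were searched on both strands in 7 lists, and those shown were picked after the matches were seen, so no test was made. The interferon response element, searched as a pair of GAAA blocks with 2 bases between them, was found in 10 of 27 interferon-stimulated genes with a promoter (37%) and in 3 of 19 class I genes (15.8%), against 3.46% of all promoters. The promoter of B2m carries 1 match, in capitals, beginning at position -139 from the start (chr2:122147437-122147686, plus strand).
B2m: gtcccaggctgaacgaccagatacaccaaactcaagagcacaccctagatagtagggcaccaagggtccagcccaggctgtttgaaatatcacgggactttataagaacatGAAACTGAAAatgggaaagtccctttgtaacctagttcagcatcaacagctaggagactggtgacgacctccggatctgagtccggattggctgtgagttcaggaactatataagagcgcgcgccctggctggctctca
A match of letters is a description and not a shown binding site. Of the other motifs, the amino acid response element TGATGNAA was in 8 of 27 stress response genes (29.6%) against 3.91% of all. The antioxidant element TGANNNNGC was in 14 of 25 NRF2 genes (56%) against 38.7%. Its shares in the other lists ran from 33.3% (complement) to 57.9% (class I), so it was not particular to NRF2 genes. The metal element TGCGCNC was in 4 of 25 NRF2 genes (16%) against 14%. Its shares in the other lists ran from 0% (complement) to 25.9% (stress response). The kappaB site was in 1 of 19 class I genes against 0.111%. The serum response element was in 0.074% of all and in no gene of the 7 lists. The remaining motifs are described below.

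Of 31 lysosomal genes 23 rose and none fell, with a median of 0.74, and 14 rose with WT 1 alone (median 0.49). Ctsc, a protease that activates other granule proteases, was at 10 to 14.6 CPM in YG8JR and at 4.45 and 2.14 CPM in WT (log2 fold change 1.88 ± 0.31, adjusted p = 0.00959). Lamp2, a lysosomal membrane protein found in all cells, was at 144, 145, 156, 172 and 140 CPM against 99.3 and 83.3 CPM (log2 fold change 0.73 ± 0.14, adjusted p = 0.0111). The E-box CACGTG, the core of the element bound by TFEB, was present in 9 of 25 lysosomal promoters (36%) against 6.86% of all. Ctsd, which encodes cathepsin D (122 to 178 CPM against 81.9 and 29.6 CPM, adjusted p = 0.0222), and Lamp1 (272 to 328 CPM against 203 and 73.4 CPM, adjusted p = 0.0348) are shown, chosen for their matches, with each E-box in capitals (chr7:142387828-142388077, minus strand, and chr8:13158911-13159160, plus strand).
Ctsd: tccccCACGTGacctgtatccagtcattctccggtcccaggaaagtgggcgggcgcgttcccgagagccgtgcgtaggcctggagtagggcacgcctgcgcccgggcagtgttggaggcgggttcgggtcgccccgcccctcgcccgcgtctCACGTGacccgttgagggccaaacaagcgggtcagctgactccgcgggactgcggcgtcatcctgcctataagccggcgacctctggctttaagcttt
Lamp1: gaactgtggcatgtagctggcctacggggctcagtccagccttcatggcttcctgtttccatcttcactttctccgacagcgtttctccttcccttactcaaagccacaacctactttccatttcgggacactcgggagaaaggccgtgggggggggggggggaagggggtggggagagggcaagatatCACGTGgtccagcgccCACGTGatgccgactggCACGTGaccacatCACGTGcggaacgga

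Astrocyte genes were higher in YG8JR, with 14 of 15 astrocyte genes called (median 1.08, and 9 called with WT 1 alone, median 0.69). Gfap, the intermediate filament of reactive astrocytes, was at 580, 506, 605, 590 and 609 CPM in YG8JR and at 145 and 75.3 CPM in WT. The 5 YG8JR libraries lay close together and far above WT, by 2.39 ± 0.26 on the log2 scale (adjusted p = 0.00584), or 1.99 with WT 1 alone (adjusted p = 0.000257). Aqp4, the water channel of astrocyte endfeet, was at 703 to 909 CPM against 412 and 315 CPM (log2 fold change 1.21 ± 0.18, adjusted p = 0.00818). Of 28 reactive astrocyte genes 18 rose and none fell (median 1.45), and 16 rose with WT 1 alone. These included Vim, an intermediate filament, at 183 to 230 CPM against 101 and 51 CPM, and Nes, an intermediate filament of progenitors and reactive glia, at 14.2 to 24.9 CPM against 5.84 and 3.08 CPM. Bergmann glia genes were mixed, with 5 of 13 called higher and 1 lower (4 and 1 with WT 1 alone). The lower one was Tnc, a matrix glycoprotein, at 5.25 to 9.84 CPM against 17 and 13.8 CPM (adjusted p = 0.0279).

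Vessel and border genes followed. Of 18 endothelial genes 14 rose (median 1.18, and 9 with WT 1 alone), for example Cdh5, the cadherin of endothelial junctions, at 30.6 to 38.3 CPM against 14.2 and 7.51 CPM (log2 fold change 1.64 ± 0.24, adjusted p = 0.00807). Of 12 mural cell genes 8 rose (median 1.01, and 4 with WT 1 alone), among them the pericyte receptor Pdgfrb, at 35.8, 37.1, 35.6, 35 and 40.5 CPM against 18.9 and 16 CPM. Of 15 meningeal fibroblast genes 13 rose (median 1.56), but 3 with WT 1 alone. Col1a2, a chain of type I collagen, was at 57.9 to 72 CPM against 21.6 and 13.3 CPM (log2 fold change 1.90 ± 0.20, adjusted p = 0.00584). Timp3, an inhibitor of matrix proteases bound to the matrix and named here because it passed with library weights, was at 232, 232, 252, 262 and 249 CPM against 85.6 and 56.9 CPM.

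Choroid plexus genes varied between libraries. Ttr, the transthyretin secreted by choroid plexus, was at 12.8 CPM in edited 2, 4260 CPM in edited 5, 2760 and 2520 CPM in mock, 568 CPM in untreated and 26.1 and 45.6 CPM in WT. The edited 2 library lay below both WT libraries and the other 4 YG8JR libraries lay above them. The list had a median log2 fold change of 3.46, yet 2 of 15 genes, Clic6 and Enpp2, were called, and neither with WT 1 alone. These 2 genes are 13.3% of the list, near the 12.4% of all genes called higher. The summed level of the 15 genes was 260, 8000, 5200, 4930 and 1340 CPM in YG8JR and 211 and 229 CPM in WT.

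Mature oligodendrocyte genes rose in 18 of 20 cases (median 1.06), and 12 rose with WT 1 alone (median 0.79). Myrf, the transcription factor of myelin genes, was at 123, 144, 112, 119 and 142 CPM in YG8JR and at 56.2 and 42.2 CPM in WT (log2 fold change 1.38 ± 0.17, adjusted p = 0.00628). Mobp, a myelin protein, was at 605 to 767 CPM against 317 and 254 CPM. Among 14 genes of oligodendrocyte precursors 10 rose (median 0.90, and 7 with WT 1 alone), with Olig1, a lineage factor, at 55 to 75.1 CPM against 29.8 and 18.6 CPM.

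Neuronal genes split by cell type. Purkinje cell genes were higher in YG8JR, with 19 of 20 called (median 1.14, and 14 with WT 1 alone, median 0.81). Pcp2 was at 64.2, 56.7, 69.6, 63.4 and 65.6 CPM in YG8JR and at 35 and 20.9 CPM in WT (log2 fold change 1.19 ± 0.19, adjusted p = 0.00925). Granule neuron genes were lower, with 12 of 18 called and all 18 estimates below 0 (median -0.68, and 9 called with WT 1 alone, median -0.73). Grm4, a glutamate receptor of parallel fibre terminals, was at 282, 230, 244, 256 and 212 CPM in YG8JR and at 500 and 628 CPM in WT (log2 fold change -1.20 ± 0.15, adjusted p = 0.00628). Fat2, a giant cadherin of granule cells, was at 632 to 954 CPM against 1680 and 1920 CPM, and Neurod1, a granule cell transcription factor, at 118 to 164 CPM against 244 and 302 CPM. The groups did not overlap for any of these 4 genes, as for 99.6% of all genes called higher and 88.5% of those called lower. Genes of the deep nuclei and brainstem were uneven. Of 16, 4 were called higher (25%, against 12.4% of all genes), Spp1, Slc6a5, Th and Nefh. Estimates in the list ran from -1.13 to 4.84, with a median of 2.19, and 1.76 with WT 1 alone. The list averaged a log2 CPM of 0.79 in WT 1 and -1.35 in WT 2, so its median includes genes counted near the floor. Slc6a5, the glycine transporter of inhibitory neurons, was at 66.1 to 91.6 CPM against 36.1 and 24.5 CPM. The summed level of the Purkinje list ran from 17300 to 24500 CPM in YG8JR against 12500 and 6650 CPM in WT, and that of the granule list from 5610 to 7930 CPM against 9880 and 10300 CPM. These cell type markers moved together with the other lists described, and their part in those results was not tested.

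**Figure D3:**
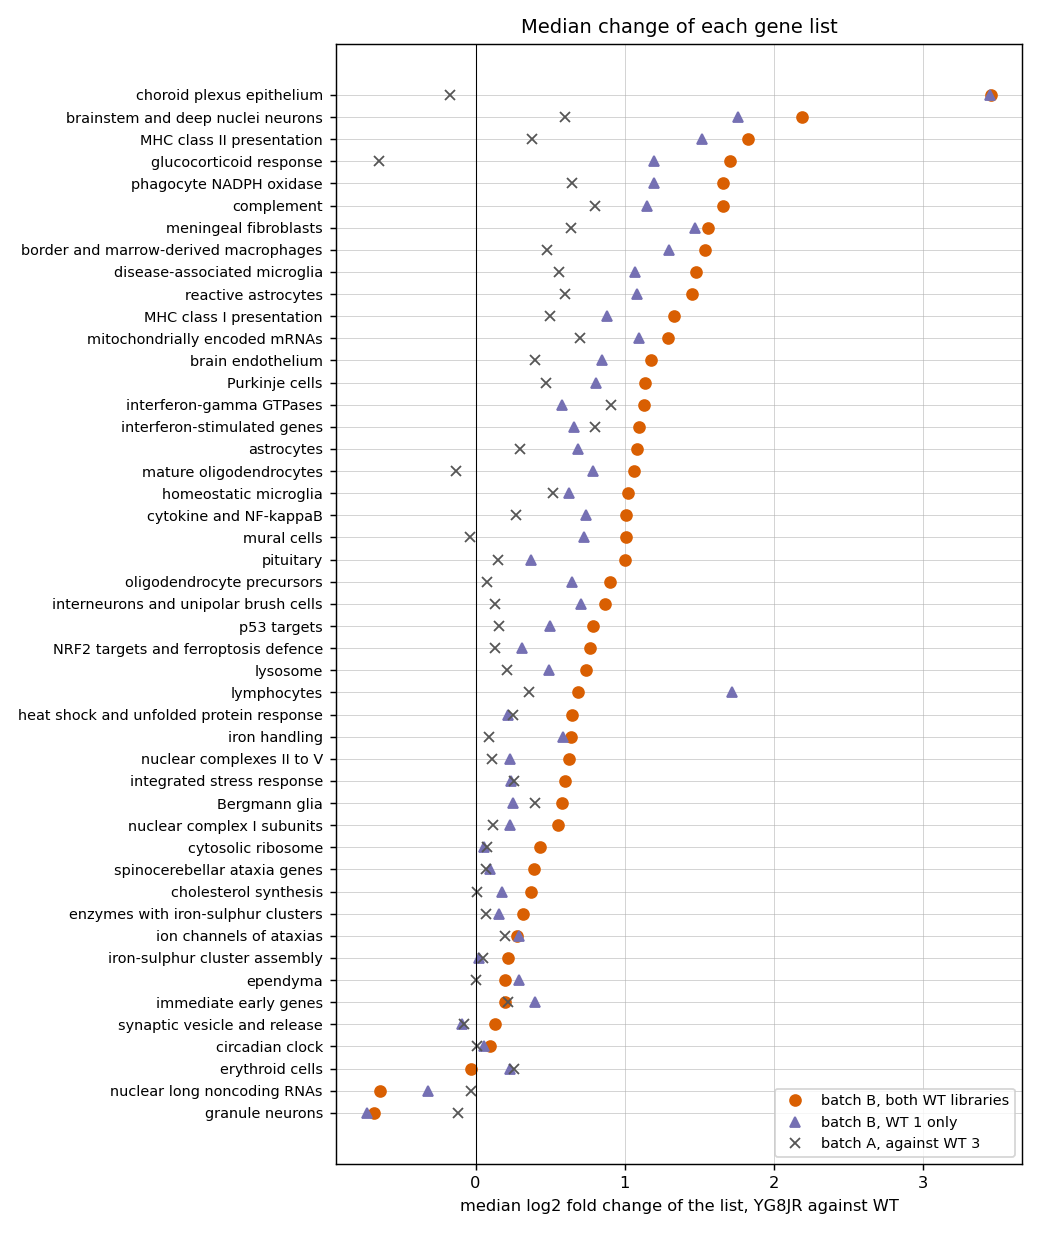
Median log2 fold change of the tested genes of each list on the x axis, for YG8JR against both WT libraries of batch B (circles), against WT 1 alone (triangles) and for batch A against WT 3 (crosses). Most medians are nearer 0 with WT 1 alone, and the glucocorticoid list lies at 1.71 in batch B and -0.65 in batch A.

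Genes of the pathway affected in the disease were examined next. Of 24 iron-sulphur cluster assembly genes, 1 rose and 2 fell (median 0.22, and 0.02 with WT 1 alone, where none passed). The gene that rose was Nubp2, part of the cytosolic assembly machinery, at 16.7 to 19.7 CPM against 14 and 7.36 CPM (adjusted p = 0.0404). Those that fell were Mms19, which delivers clusters to nuclear enzymes, and Fdxr, the ferredoxin reductase of mitochondria, the latter at 9.62 to 13.9 CPM against 14.5 and 21.8 CPM (adjusted p = 0.0458). Shares of 4.17% higher and 8.33% lower in this list compare with 12.4% and 14.6% over all genes. Of 30 enzymes that carry clusters, 7 rose (23.3%) and 3, Ddx11, Pold1 and Mutyh, fell (10%), with a median of 0.32. With WT 1 alone the median was 0.16, and calls were about as frequent as over all genes.

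Iron handling genes rose in 12 of 25 cases, and none fell (median 0.64, and 6 with WT 1 alone, median 0.59). Cp, the ferroxidase ceruloplasmin, was at 50.3, 57.7, 61.8, 70.1 and 58.9 CPM in YG8JR and at 24.8 and 14.7 CPM in WT (log2 fold change 1.59 ± 0.22, adjusted p = 0.00754). Fth1, the heavy chain of the iron store ferritin, was at 561 to 837 CPM against 372 and 228 CPM (log2 fold change 1.22 ± 0.23, adjusted p = 0.0117). Of 29 NRF2 target and ferroptosis defence genes 14 rose (median 0.77, and 7 with WT 1 alone, median 0.31). Slc7a11, the cystine importer that feeds glutathione synthesis, was at 69.4, 88.6, 73, 101 and 87.3 CPM against 44.5 and 29.7 CPM (adjusted p = 0.0104). Of 33 integrated stress response genes 9 rose and 2, Aldh1l2 and Pck2, fell (median 0.60, and 7 higher and none lower with WT 1 alone).

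Transcripts encoded by mitochondrial DNA were higher in YG8JR, with 12 of 13 mRNAs called (median 1.29, and 5 with WT 1 alone, median 1.10). Their share of all counts was 3.09%, 3.02%, 3.28%, 3.08% and 3.02% in YG8JR and 1.94% and 1.54% in WT, or 3.1% ± 0.107 (SD, n = 5) against 1.74% ± 0.283 (SD, n = 2). An exact two-sided permutation test gave p = 0.0952, the smallest that 5 against 2 libraries allow. mt-Nd5, a complex I subunit, was at 2220 to 3440 CPM against 1150 and 956 CPM (log2 fold change 1.42 ± 0.22, adjusted p = 0.00845). Among nuclear genes of the respiratory chain, 9 of 36 complex I genes rose (25%, median 0.55). Of 40 genes of complexes II to V, 7 rose (17.5%, against 12.4% of all genes) and 1, Atp5l, fell (median 0.63). With WT 1 alone both medians were 0.23, and calls were about as frequent as over all genes or fewer. Ndufa13, a complex I subunit, was at 30.3 to 38 CPM against 18.8 and 14.5 CPM (adjusted p = 0.00837). Of 48 cytosolic ribosome genes 3 rose (6.25%), Rps9, Rpl23 and Rps12, with a median of 0.43, and none passed with WT 1 alone (median 0.06).

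Genes induced by glucocorticoids were higher in YG8JR, with 15 of 17 called (88.2%, against 12.4% of all genes) and none lower (median 1.71). For all 17 the YG8JR values lay above WT without overlap, against 23% of all genes. With WT 1 alone 12 rose (median 1.20). Plin4, a lipid droplet protein, was at 112, 94.4, 80.2, 62.9 and 100 CPM in YG8JR and at 32.9 and 21.9 CPM in WT (log2 fold change 1.71 ± 0.25, adjusted p = 0.00821, and 0.0517 with WT 1 alone). Zbtb16, a transcription factor strongly induced by glucocorticoids, was at 167, 124, 174, 182 and 186 CPM against 62.7 and 28 CPM (log2 fold change 1.87 ± 0.30, adjusted p = 0.00925). Cdkn1a, the cell cycle inhibitor p21 and also a target of p53, was at 52.4 to 98.5 CPM against 24.8 and 8.6 CPM. The other members named here were picked after their values were seen. Fkbp5, a chaperone that dampens the glucocorticoid receptor, was at 80.9, 50, 57.9, 75.6 and 58 CPM against 21.8 and 6.66 CPM (log2 fold change 2.17 ± 0.41, adjusted p = 0.0119). Tsc22d3, the glucocorticoid-induced leucine zipper, was at 274 to 358 CPM against 146 and 59.2 CPM (adjusted p = 0.0109).

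The glucocorticoid response element, searched as GNACA and TGTNC with 3 bases between them, was found in 3 of 16 promoters of this list (18.8%) against 0.44% of all, and its core ACANNNTGT, which every full match contains, in 4 of 16 (25%) against 6.76%. The 3 promoters with a full match are shown, with the element in capitals. Sgk1, a kinase that controls ion transport (235 to 304 CPM against 140 and 65.5 CPM, adjusted p = 0.0119), has 6 start windows. The first of them with a match is shown, with the element at position -188 (chr10:21993640-21993889, plus strand). Mt1, the metal-binding metallothionein (428 to 591 CPM against 197 and 59.4 CPM, adjusted p = 0.014), has it at -94 (chr8:94178839-94179088, plus strand). Map3k6, a stress kinase (12 to 19.2 CPM against 8.33 and 1.69 CPM, adjusted p = 0.0318), has it at -181 (chr4:133240568-133240817, plus strand).
Sgk1: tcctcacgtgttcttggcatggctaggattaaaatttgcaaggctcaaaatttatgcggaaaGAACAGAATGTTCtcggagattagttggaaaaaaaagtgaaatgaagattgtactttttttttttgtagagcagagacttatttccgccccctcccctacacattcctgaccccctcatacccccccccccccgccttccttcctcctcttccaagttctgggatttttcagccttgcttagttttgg
Mt1: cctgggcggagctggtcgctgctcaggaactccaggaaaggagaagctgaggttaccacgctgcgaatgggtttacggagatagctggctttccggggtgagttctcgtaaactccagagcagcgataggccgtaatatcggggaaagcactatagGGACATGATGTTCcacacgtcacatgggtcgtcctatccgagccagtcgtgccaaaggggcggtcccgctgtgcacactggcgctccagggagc
Map3k6: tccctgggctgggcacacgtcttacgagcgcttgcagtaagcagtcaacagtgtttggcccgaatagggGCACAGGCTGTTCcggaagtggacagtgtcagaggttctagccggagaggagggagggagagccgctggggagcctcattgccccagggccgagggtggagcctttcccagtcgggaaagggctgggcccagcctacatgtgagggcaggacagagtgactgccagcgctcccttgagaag

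**Figure D4:**
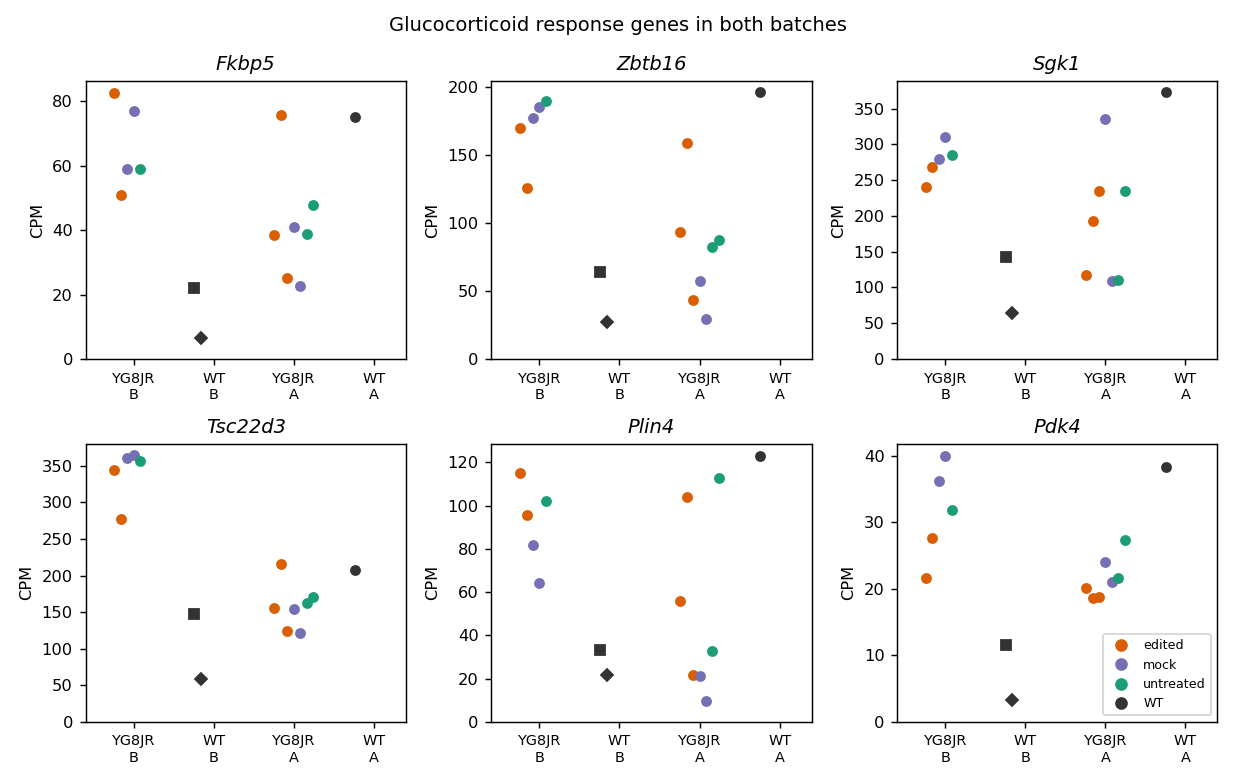
CPM of 6 glucocorticoid response genes in all 15 libraries, scaled over the 15 libraries together, by genotype and batch, with 1 point for each library and treatment in color. In batch B every YG8JR library lies above both WT libraries, and in batch A WT 3 lies within or above the YG8JR range.

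Circadian clock genes, by contrast, showed 2 calls higher (11.8%) and 1 lower (5.88%) among 17, against 12.4% and 14.6% of all genes. Their median was 0.10, and 0.06 with WT 1 alone. Per3, a clock repressor, was at 45.7 to 63.7 CPM against 79.8 and 122 CPM (log2 fold change -0.82 ± 0.18, adjusted p = 0.0156), and missed the threshold with WT 1 alone (adjusted p = 0.0876). Of 19 immediate early genes 4 rose (21.1%, against 12.4% of all genes) and none fell, with a median of 0.20. With WT 1 alone the median was 0.40, and calls were about as frequent as over all genes. Klf4, a transcription factor of vessels and glia that passed in both fits, was at 8.1 to 9.11 CPM against 3.68 and 2.49 CPM.

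Long noncoding RNAs were lower in YG8JR, and this was weaker with WT 1 alone. Of 5208 long noncoding genes tested 77 (1.48%) were called higher and 1465 (28.1%) lower, against 12.4% and 14.6% of all genes. Their median log2 fold change was -0.95. Over all genes the median was 0.003, and 0.03 with WT 1 alone. With WT 1 alone 13 were higher and 42 (0.806%) lower, with a median of -0.30. Protein-coding genes showed the other balance, with 2816 of 15690 (17.9%) called higher and 1500 (9.56%) lower, and 1124 and 345 with WT 1 alone. Of 12 nuclear long noncoding RNAs 5 fell (median -0.64), and 2 fell with WT 1 alone (median -0.32). Mirg, a transcript of the imprinted Dlk1-Dio3 region, was at 16.9 to 27.8 CPM against 48.7 and 81.3 CPM (log2 fold change -1.44 ± 0.22, adjusted p = 0.00845, and 0.0154 with WT 1 alone). Kcnq1ot1, an imprinted antisense transcript, was at 122 to 227 CPM against 210 CPM in WT 1 and 662 CPM in WT 2, so that mock 1 lay above WT 1 (adjusted p = 0.606 with WT 1 alone).

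**Figure D5:**
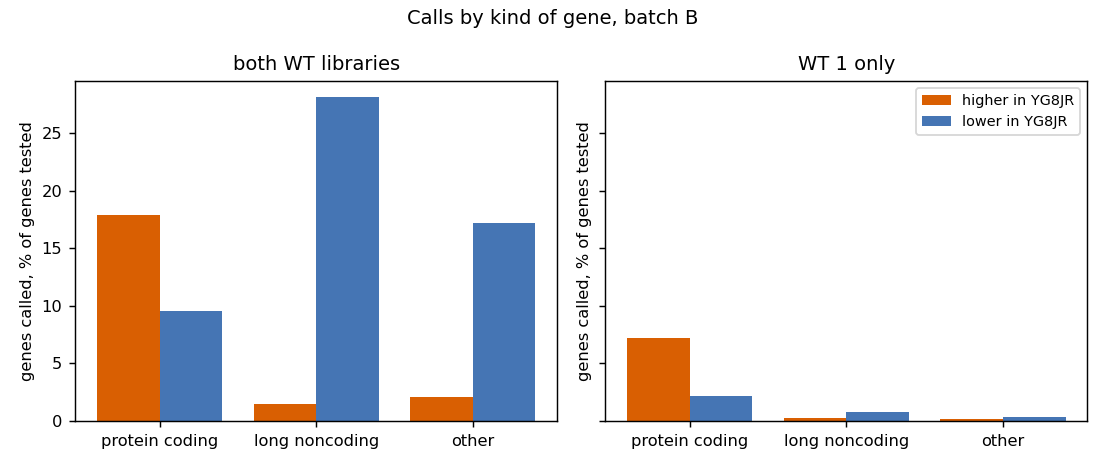
Share of tested genes called higher (orange) and lower (blue) in YG8JR, in percent, by kind of gene, with both WT libraries (left) and with WT 1 alone (right). With both WT libraries, lower calls were 28.1% of long noncoding and 9.56% of protein-coding genes, and both shares were smaller with WT 1 alone.

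The 3 treatments were also set against the same 2 WT libraries in the fit with 4 group means. These comparisons share their controls, so their values are given side by side only. Mock YG8JR, with Y-linked transcripts at 0.965 and 1.6 CPM against 0.0337 and 0.0497 CPM in WT, differed from WT in 7 genes (0.0294%), all higher: Fmo2, Lyz2, Gm10800, Gm10801, Gm10718, Gm10717 and Gm21738. Unadjusted p was under 0.05 for 2821 genes higher and 2812 lower. Edited YG8JR had 11 genes higher (0.0462%) and 1 lower (0.0042%), which were those 7, the 4 Y-linked genes and, lower, Xist. Untreated YG8JR had 5, the 4 Y-linked genes higher (0.0168%) and Xist lower (0.0042%).

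Fmo2 had a log2 fold change of 2.78 in mock (adjusted p = 0.0311), 2.81 in edited (adjusted p = 0.0183) and 2.11 in untreated (adjusted p = 0.293). Lyz2 stood at 4.22 in mock (adjusted p = 0.0115), 4.24 in edited (adjusted p = 0.00596) and 2.37 in untreated (adjusted p = 0.293). C4b stood at 3.14 in mock (adjusted p = 0.113), 3.05 in edited (adjusted p = 0.124) and 3.06 in untreated (adjusted p = 0.293). Gm10800, a predicted gene of repetitive sequence whose reads may be shared with near-identical copies, was at 324 and 316 CPM in edited, 581 and 689 CPM in mock, 37.3 CPM in untreated and 8.1 and 11.8 CPM in WT. In the pooled fit Gm10800 and the other 4 predicted genes were called higher, and none of the 5 passed with WT 1 alone (adjusted p from 0.269 to 0.33). The median of the glucocorticoid list was 1.80 in mock, 1.58 in edited and 1.78 in untreated. In the same order the medians were 1.63, 1.53 and 1.66 for disease-associated microglia, -0.72, -0.61 and -0.85 for granule neurons, 3.80, 3.51 and 1.95 for choroid plexus and 2.42, 2.02 and 1.60 for brainstem and deep nuclei neurons. Differences between treatments were not tested.

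Batch A holds 7 YG8JR libraries and WT 3, and its tissue markers differed. Pcp2 was at 0.195 to 24.7 CPM in its YG8JR libraries and 1.38 CPM in WT 3, and Fat2 at 8.66 to 239 CPM and 148 CPM. The genotype effect in batch A rests on 1 WT library, and no gene passed there in edgeR, with 608 higher and 342 lower at an unadjusted p under 0.05. Of the genes called higher in batch B, 72.1% had a log2 fold change above 0 in batch A, against 56.2% of all genes, and of those called lower 63.8% were below 0. The medians of these groups in batch A were 0.13 and -0.10, against 0.04 for all genes. The difference of the genotype effect between the batches was called for 63 of 28145 genes (0.224%), 59 of them more positive in batch B, with 3579 (12.7%) at an unadjusted p under 0.05. Without WT 2 the count was 6 genes, and without WT 1 it was 2878.

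Glucocorticoid genes had opposite signs in the batches, with 15 of 17 below 0 in batch A and a median of -0.65, and the difference itself was called for 1 of 17. That gene was Pdk4, a kinase that limits pyruvate oxidation, at 21.1 to 39.2 CPM in YG8JR and 11.4 and 3.28 CPM in WT of batch B, and at 18.6 to 27.3 CPM in YG8JR and 38.4 CPM in WT of batch A (difference of 2.90 on the log2 scale, adjusted p = 0.0376). Mature oligodendrocyte genes had a median of -0.13 in batch A, with the difference called for 2 of 20 genes. Disease-associated microglia genes had a median of 0.56 in batch A and 22 of 25 above 0, and complement genes a median of 0.80 and 16 of 19 above 0, with no difference called in either list. Clec7a was at 1.11 to 4.42 CPM in the YG8JR libraries of batch A and 0.398 CPM in WT 3, a log2 fold change of 2.96. C4b was at 137 to 283 CPM against 70.1 CPM there, a log2 fold change of 1.51, and the difference between batches was not called (adjusted p = 0.216).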

How the data were processed

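Cerebellar RNA was sequenced in 15 libraries, of which 7 in batch B are compared here. The deposited table holds raw read counts for 55487 mouse genes and 1 further row, which stayed out of library sizes and tests. STAR and the GRCm39 build are named per the submitters' processing notes. The counting tool, annotation and strand setting were not given in the sources used here. Per the labels' protocols, a stranded kit was used. Symbols came from GENCODE M21 by identifier for 55141 genes (99.4%). Results for the targeted gene and some others are not reported here.

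Genes with at least 10 counts by the edgeR filter (minimum total 15) were scaled by TMM and tested in R 4.3.3 with edgeR 4.0.16 (robust quasi-likelihood), with genotype as the only term, and adjusted by Benjamini-Hochberg over all genes tested. CPM used TMM sizes over the 7 libraries, or over all 15 for batch A. Batch differences came from an interaction term over 15 libraries. Alternatives were RLE scaling, no filter, a filter of 5 CPM in 2 libraries, DESeq2 1.42.0, limma 3.58.1 with voom weights, group means, all 15 libraries, a Y-linked covariate, a replicate block, single treatments and leaving out each library. No pair of replicates held copies of 1 library (chi-square per gene 28.4 to 86.3). In simulated data with 200 changed genes of 23048, 37% of 2-fold and 79% of 4-fold changes were recovered, with 4 false calls. The pooled fit called 6414 genes, far more than were changed there, so these rates need not hold for its calls. The biological coefficient of variation was 0.297. Depth was 16847839 to 38760039 counts.

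The libraries, gene lists and tests were chosen with earlier results of these data known. Named genes are the 12 per direction with the widest gap between groups, at a mean of at least 5 CPM and without predicted names, plus the members with the smallest p in a list, at most 4. Genes named outside this rule are said to be so or serve as markers or members listed by what they do.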

Additional observations from a re-analysis of the deposited data

Results flagged for a closer look

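Among the 5 YG8JR libraries, which mix 3 treatments, 3 values lay apart from the other 4 by Dixon's criterion, which chance meets in about 1 in 20 groups. They come from many list scores and library measures, so a few such values are met by chance alone. Mock 1 had 3.28% of its counts from mitochondrial genes, against 3.02% to 3.09% in the other 4. Edited 2 had a mean log2 CPM of 3.24 over the mural cell genes, against 3.45 to 3.53, and of 1.47 over the phagocyte NADPH oxidase genes, against 1.75 to 1.86.

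For 3 of the 24 genes with the widest gap, the difference of the genotype effect between batch B and batch A was called by the interaction test. Over all genes it was called for 63 of 28145 (0.224%). The 24 genes were chosen by their gap in batch B, which favours such a difference, so the 3 calls are not an independent test. The difference, batch B minus batch A, was 2.08 on the log2 scale for Fcgr2b (adjusted p = 0.0437), 2.19 for Fcrls (adjusted p = 0.0449) and -2.27 for Car4 (adjusted p = 0.0376). Batch A has 1 WT library, WT 3, at 3.72 CPM for Fcgr2b, 7.86 CPM for Fcrls and 6.16 CPM for Car4.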

How the results depend on the processing

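The pooled counts of 2952 genes higher and 3462 lower stayed within 1.5 times under RLE scaling, no filter, the stricter filter, DESeq2 and all 15 libraries. They became 3 and 0 with library weights, 11 and 2 with 4 group means, 0 and 0 with the Y-linked covariate, 7 and 0 for mock, 11 and 1 for edited, 4 and 1 for untreated, and 4 and 0 with mock and WT alone in the fit, an alternative added after seeing the data. Leaving out 1 library gave 1141 to 6660 higher and 406 to 5821 lower, with both extremes set by WT. The replicate block left 0 and 0 (2693 higher and 1811 lower at an unadjusted p under 0.05, smallest adjusted p 0.145). Deviations from the genotype mean correlated between same-numbered libraries at -0.5 (WT 1 and mock 1), -0.3 (WT 1 and untreated 1) and -0.01 (WT 2 and edited 2). With 2 WT libraries the deviations of WT 1 and WT 2 mirror each other. Whether the numbers pair the libraries therefore cannot be told from these correlations. The 63 batch differences became 158 with the stricter filter and 6 to 2878 without 1 library, also added afterwards. The median of the circadian list, 0.10, was -0.11 with the stricter filter, -0.01 with the Y-linked covariate and -0.01 with mock and WT alone; the cause was not tested. Of 179 named genes, 126 kept the call with WT 1 as the only WT library, 179 lost it with the Y-linked covariate, and none changed sign. With 2 WT libraries, 1 of them at 16847839 counts, genes of small change could not be resolved.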
